A study of Mus musculus with 4 samples.

Results

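The type 2 cytokine locus of the mouse holds the genes of IL-13, IL-4 and IL-5, with Rad50 lying between Il13 and Il5 and Kif3a next to Il4. These 5 genes were followed in RNA sequencing libraries of activated lung ILC2s. They were taken by their symbols as neighbours on chromosome 11, and all 5 were found among the 22558 genes of the count table, the 18324 genes of the normalized table and the 11711 genes tested.

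ILC2s, the group 2 innate lymphoid cells, carry no rearranged antigen receptor and make type 2 cytokines on contact with IL-33, an alarmin of damaged epithelium. IL-5 is the growth and survival factor of eosinophils, IL-13 drives mucus production and airway hyperreactivity, and IL-4 is best known for class switching to IgE and for the differentiation of Th2 cells. The 3 cytokine genes share regulatory DNA, part of it in the 3′ part of Rad50, and are opened together when a lymphocyte takes on the type 2 fate. Rad50 and Kif3a are housekeeping neighbours, the first an ATPase subunit of a DNA repair complex and the second a motor subunit of kinesin-2.

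The 4 libraries were 2 labelled C57BL/6 with a wildtype genotype (WT) and 2 labelled ICAM-1 KO on a C57BL/6 background, all from lungs of mice aged 6 weeks that had received 3 intranasal doses of 0.5 µg rmIL-33. Each library was a pool of 4 mice, with lungs taken on day 4 and ILC2s sorted as lineage-negative CD45+ ST2+ CD127+ cells. According to the study's methods the deficient mice carried the allele Icam1 tm1Jcgr, which is present in every cell of the animal and not in ILC2s alone. ICAM-1 is an adhesion molecule and a ligand of the integrin LFA-1, and the comparison asked how ILC2s differ in its absence.

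The counts on genes summed to between 24796148 and 28782471 per library. Icam1, the targeted gene, was read 2579 and 2630 times in WT and 2812 and 3453 times in those labelled ICAM-1 KO. It was therefore not lower where the label says knockout, and every direction given here rests on the labels. Since the counts are summed over the whole gene, they do not show which exons of Icam1 were read. With 2 libraries a group, p-values measure the spread between these pools and not between animals. In such bulk samples, fewer cells that express a gene and less RNA per cell cannot be told apart.

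On mm10 the 5 genes span 157.7 kb of chromosome 11. In order, Kif3a lies at chr11:53567379-53601967 on the plus strand, Il4 at chr11:53602982-53618669 on the minus strand, Il13 at chr11:53631324-53634702 on the minus strand, Rad50 at chr11:53649519-53707319 on the minus strand and Il5 at chr11:53720794-53725106 on the plus strand. Kif3a and Il4 run towards each other and their annotated ends are 1.0 kb apart. Among the 5 genes, Il4 is thus the cytokine gene with the closest neighbour. The gap from Il4 to Il13 is 12.7 kb, that from Il13 to Rad50 14.8 kb and that from Rad50 to Il5 13.5 kb.

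Il13 and Il5 are the members that changed between the groups, and Il4 is the cytokine gene between whose groups no difference passed the test. The 250 bases before the RefSeq start of each of these genes (build GRCm38.p6, 5′ to 3′ on the gene's strand) are therefore shown. Capitals mark the letters GATA, read on both strands, and the longest run of letters shared by the Il13 and Il5 windows.
Il13, chr11:53634703-53634952, minus strand: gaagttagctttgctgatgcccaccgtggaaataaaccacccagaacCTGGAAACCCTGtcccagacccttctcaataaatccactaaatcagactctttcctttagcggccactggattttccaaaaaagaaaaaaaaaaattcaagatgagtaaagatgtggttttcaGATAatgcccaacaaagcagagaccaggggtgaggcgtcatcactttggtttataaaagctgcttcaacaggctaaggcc
Il5, chr11:53720544-53720793, plus strand: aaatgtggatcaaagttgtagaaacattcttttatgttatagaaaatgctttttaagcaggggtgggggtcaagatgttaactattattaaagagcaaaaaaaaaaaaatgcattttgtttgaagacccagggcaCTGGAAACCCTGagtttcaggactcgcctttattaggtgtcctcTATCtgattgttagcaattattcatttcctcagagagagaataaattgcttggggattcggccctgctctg
Il4, chr11:53618666-53618915, minus strand: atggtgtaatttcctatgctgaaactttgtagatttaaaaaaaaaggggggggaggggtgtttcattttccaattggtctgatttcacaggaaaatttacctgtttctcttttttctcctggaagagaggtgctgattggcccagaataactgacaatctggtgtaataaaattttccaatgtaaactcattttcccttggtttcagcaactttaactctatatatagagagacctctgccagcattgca

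The windows of Il13 and Il5 share a run of 12 bases, ctggaaaccctg, in the same orientation. It begins 203 bases before the start of Il13 and 115 bases before the start of Il5, and of 32817 RefSeq windows of this length 6 hold it on either strand, these included. All other pairs of windows among Kif3a, Il4, Il13 and Il5 had a longest shared run of 7 to 9 bases. RefSeq lists a second start for Il4, with a window at chr11:53617339-53617588. Of the 5 genes 4 were matched to a window, and Rad50 was not.

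GATA, the core letters bound by GATA-3, occurred once in the Il13 window, 80 bases before the start, and once in the Il5 window, 71 bases before the start. No match was found in the Il4 window shown, and 3 were found in that of its second start. These letters are common, since 53.6% of all windows hold them. The NFAT core GGAAA, on both strands, had 4 matches for Il13, 2 for Il5, 5 for the Il4 window shown and 1 for Kif3a, against 55.6% of all windows with at least 1. For Il13 and Il5, 1 of these matches lies inside the shared run. TATAAA was found for Il13 alone, at 31 and 29 bases before the start on opposite strands, and 12.4% of all windows hold it. A match of letters is a description of the window and not a site.

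Il5 was by far the most abundant of the 5 genes. Its normalized count, which is the count plus 1 scaled by the authors to a common upper quartile, was 1039 and 1252 in the WT libraries and 668 and 656 in those labelled ICAM-1 KO. Both libraries labelled ICAM-1 KO thus lay below both WT libraries, and they were closer to each other than the WT libraries were. The mean fell from 1145 ± 151 (SD, n = 2 libraries) to 662 ± 8.72 (SD, n = 2), a log2 fold change of -0.76 (95% confidence interval -0.99 to -0.54, standard error (SE) 0.101, Benjamini-Hochberg adjusted p = 0.00274 in the quasi-likelihood test of edgeR). In fold terms Il5 was 1.7-fold lower. An antisense gene, Gm12214, overlaps an exon of Il5 and had 103 and 99 counts in WT against 26 and 44 counts in those labelled ICAM-1 KO. As the counting is not stated to have used strand, reads of Il5 and Gm12214 cannot be told apart where they overlap, but Gm12214 held few counts beside the 31457 and 39534 of Il5 in WT.

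Il13 had the largest change of the 5. With 955 and 1110 counts in WT against 318 and 405 in those labelled ICAM-1 KO, its normalized counts were 31.6 and 35.2 against 11.1 and 12.9. The groups were far apart relative to the distance within each. Its mean went from 33.4 ± 2.56 (SD, n = 2) to 12 ± 1.32 (SD, n = 2), 2.73-fold lower, with a log2 fold change of -1.45 (95% confidence interval -1.87 to -1.02, SE 0.188, adjusted p = 0.00247 from the same edgeR test). Ordered from the most negative log2 fold change among the 11711 genes tested, Il13 was number 51 and Il5 number 209, whereas by p-value they were close together, at 142 and 151.

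Il4 showed no such shift. It had the fewest counts of the 5 in the WT libraries, with 269 and 302 counts there and 204 and 412 counts in those labelled ICAM-1 KO. On the normalized scale the WT libraries were at 8.91 and 9.59, and the libraries labelled ICAM-1 KO lay on either side of them, at 7.12 and 13.2. Counting error alone (exact Poisson 95% intervals) would place the latter 2 libraries between 177 and 234 counts and between 373 and 454 counts, so they differed from each other by more than counting. The log2 fold change was 0.17 with a 95% confidence interval from -0.56 to 0.91 (SE 0.325, adjusted p = 0.77 from the edgeR test). This interval leaves room for a rise or fall of Il4, and lies above that of Il13. Without ICAM-1 KO replicate 2 the log2 fold change of Il4 was -0.37 (adjusted p = 0.633), so its sign rested on that library.

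Rad50, the gene that separates Il13 from Il5, had normalized counts of 111 and 110 in WT and of 92.2 and 99.3 in those labelled ICAM-1 KO. Both of the latter were lower, but the difference was small, 1.13-fold, and did not pass the test (log2 fold change -0.18, 95% confidence interval -0.41 to 0.04, SE 0.0996, adjusted p = 0.259 from the edgeR test). Kif3a had normalized counts of 25 and 32 in WT and 26.7 and 18.9 in those labelled ICAM-1 KO. Its groups overlapped (log2 fold change -0.30, 95% confidence interval -0.78 to 0.17, SE 0.211, adjusted p = 0.371). The intervals of Rad50 and Kif3a both lie above that of Il13, and that of Rad50 also lies above that of Il5.

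**Figure D1:**
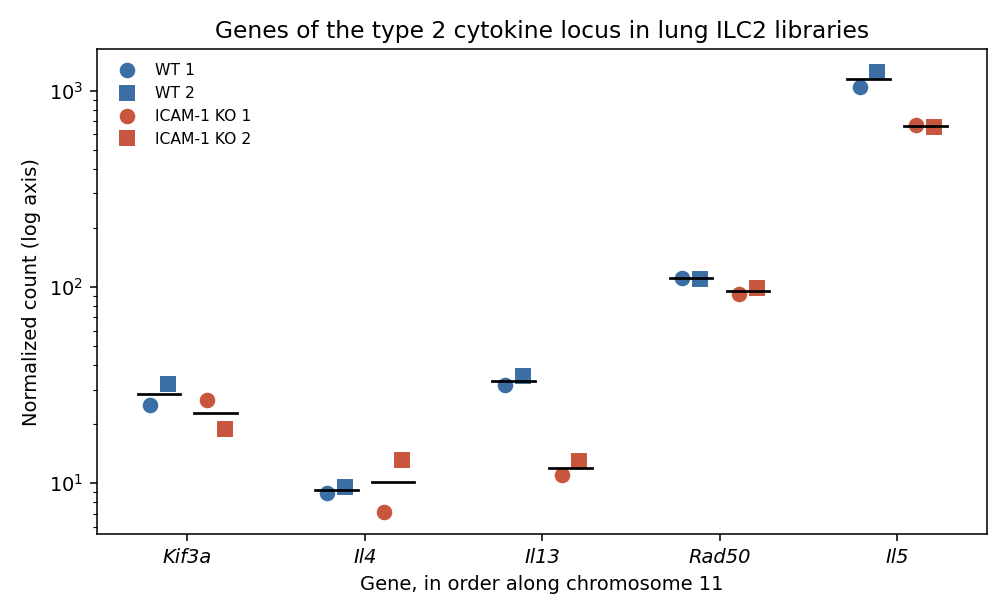
Normalized count (log axis) of the 5 genes in each library, in order along chromosome 11. Circles are replicate 1, squares replicate 2, blue WT, red the libraries labelled ICAM-1 KO, and bars group means. Il13 and Il5 sit lower in both red libraries, at 11.1 and 12.9 and at 668 and 656, while the red points of Il4 lie on either side of the blue ones.

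Of the 5 genes, 2 were thus lower at an adjusted p under 0.05, none was higher, also at an unadjusted p under 0.05, and 1 of the 2, Il13, also reached a 2-fold change. Over all 11711 genes tested, 4.97% were lower and 8.8% higher at this threshold, and 0.538% were lower and 4.94% higher by at least 2-fold. Both libraries labelled ICAM-1 KO lay below both WT libraries for 3 of the 5 genes, Il5, Il13 and Rad50, against 31.3% of all genes, and above them for none of the 5, against 28.3% of all genes. The median log2 fold change of all genes was 0.01.

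Levels of different genes can be compared only per length, here as TPM, the share of a library's transcripts after division by length, computed from the counts and the union of annotated exons. On this scale Il5 had 2052 and 2407 TPM in WT and 1394 and 1296 TPM in those labelled ICAM-1 KO. By its mean it was the gene at rank 50 of 22532 in WT and at rank 93 in those labelled ICAM-1 KO. Il5 exceeded each of the other 4 genes in every library, by 23.1-fold or more. No member came near it.

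Below Il5 the order of levels differed between the groups. Il13 stood at 79.5 and 86.2 TPM in WT, above Rad50 at 62.7 and 60.7 TPM. In both libraries labelled ICAM-1 KO the order was the opposite, with Il13 at 29.4 and 32.5 TPM and Rad50 at 55.0 and 56.1 TPM. Il4 had 22.0 and 23.0 TPM in WT and 18.5 and 32.5 TPM in those labelled ICAM-1 KO, and Kif3a had 21.2 and 26.3 against 23.8 and 16 TPM. On this length the levels of these 2 genes overlapped in both groups. In ICAM-1 KO replicate 2, Il4 and Il13 were level at 32.5 TPM. The length used for Il4 matters here, since its exon union of 1227 bases is longer than its longest transcript of 605 bases, and with the latter its mean TPM was 34.7 in WT and 40.0 in those labelled ICAM-1 KO, above Il13 in the latter at 23.9 and above Kif3a in both groups, at 20.5 and 17.4.

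The balance between the 3 cytokine genes within a library does not depend on how libraries are scaled to each other. For every count of Il13 there were 32.9 and 35.6 counts of Il5 in the WT libraries and 60.5 and 50.8 in those labelled ICAM-1 KO. The log2 ratio of Il13 to Il5 was -5.10 ± 0.08 (SD, n = 2) in WT and -5.79 ± 0.18 (SD, n = 2) in those labelled ICAM-1 KO, lower by 0.70. Il13 thus moved further down than Il5 in these libraries. In an exact permutation test (two-sided) this difference had p = 0.333, which is the smallest p that 2 against 2 libraries allow.

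Relative to Il4, both genes lost ground. For every count of Il4 there were 3.55 and 3.68 counts of Il13 in WT, and 1.56 and 0.983 in those labelled ICAM-1 KO. The counts of Il5 for every count of Il4 were 117 and 131 in WT and 94.3 and 50.0 in those labelled ICAM-1 KO. The groups did not overlap in either ratio, but the exact permutation p was again 0.333, and the values of the libraries labelled ICAM-1 KO were spread as those of Il4 were.

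**Figure D2:**
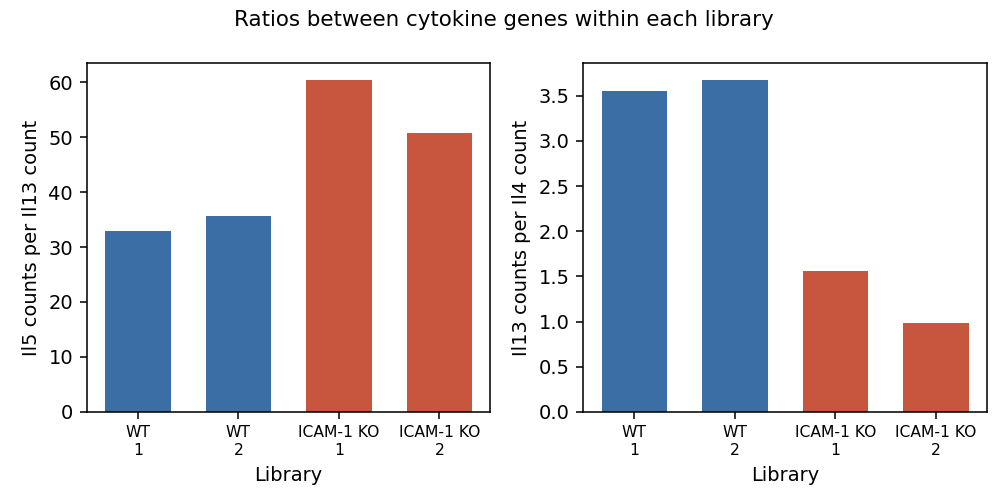
Counts of Il5 for each count of Il13 (left) and counts of Il13 for each count of Il4 (right) in the 4 libraries, as bars from 0, blue for WT and red for the libraries labelled ICAM-1 KO. The left ratio was 32.9 and 35.6 in WT and 60.5 and 50.8 in those labelled ICAM-1 KO, and the right one 3.55 and 3.68 against 1.56 and 0.983.

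Around the locus, 17 of the 37 genes within 1 Mb of the start of Il13 were expressed highly enough to be tested. Besides Il13 and Il5, Csf2 was lower and Rapgef6 was higher at an adjusted p under 0.05, and 13 genes did not pass. Of the 12 tested genes that are not members, 1 was thus lower (8.33%) and 1 higher. These counts are near the shares over all genes tested, 4.97% lower and 8.8% higher. Without WT replicate 1, and likewise without ICAM-1 KO replicate 1, only the 2 members stayed lower, so Csf2 did not pass, and without any 1 of the 4 libraries Rapgef6 did not pass. Over the 12 tested genes that are not members, the median log2 fold change was -0.12, against 0.01 for all genes. Csf2, which encodes GM-CSF and lies 615 kb from the start of Il13 at chr11:54247271-54249667, had normalized counts of 418.8 and 320.5 in WT and 218 and 271 in those labelled ICAM-1 KO (log2 fold change -0.57, SE 0.146, adjusted p = 0.0352 from the edgeR test). Rapgef6, a guanine nucleotide exchange factor at the far end of the window, had 127 and 137 against 166 and 164 (log2 fold change 0.35, SE 0.0915, adjusted p = 0.0382).

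The neighbours on each side of the block did not pass the test. Irf1, the interferon regulatory factor gene next to Il5, had normalized counts of 86.8 and 99.6 in WT and 108 and 123 in those labelled ICAM-1 KO, with a positive log2 fold change of 0.34 (adjusted p = 0.089). Further on, Slc22a5, P4ha2 and the lincRNA 4933405E24Rik had log2 fold changes of -0.26, -0.01 and -0.72, with adjusted p-values of 0.468, 0.98 and 0.269. Beside Kif3a, Sept8, Uqcrq, Aff4 and Zcchc10 had log2 fold changes of -0.01, -0.26, 0.14 and -0.30, with adjusted p-values of 0.976, 0.0878, 0.432 and 0.184. Il3, the other cytokine gene of the region, was barely counted, with 4 and 0 counts in WT against 1 and 0 in those labelled ICAM-1 KO.

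**Figure D3:**
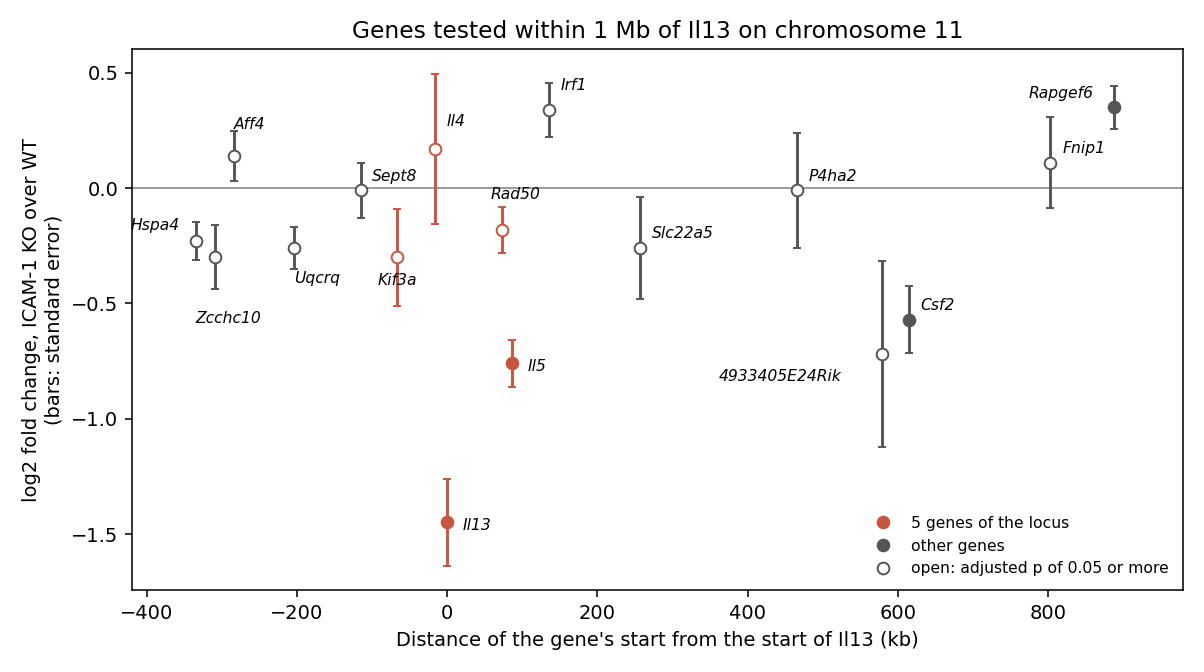
Log2 fold change (libraries labelled ICAM-1 KO over WT, with standard error) of the 17 genes tested, against the distance in kb of each gene's start from that of Il13. Red points are the 5 members, grey points other genes, and filled points have an adjusted p under 0.05. Il13 at -1.45 and Il5 at -0.76 stand below Rad50 at -0.18, which lies between them, and Il4 at 0.17.

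The genes whose pattern over the 4 libraries was most like that of Il5 were Rplp1 (a ribosomal stalk protein), Orc6 (a subunit of the origin recognition complex) and Gm15501. The measure was the Euclidean distance between centred log2 normalized counts, over 8918 other genes whose normalized count averaged at least 10, and the distances were 0.0928, 0.0948 and 0.118. For Il13 the nearest genes were Msc (a basic helix-loop-helix factor), Gadd45gip1 and Prelid2, at distances of 0.09, 0.136 and 0.211. Seen from Il13, Il5 stood at rank 45, at a distance of 0.719, and seen from Il5, Il13 stood at rank 3484. Msc went from 23 and 26 to 8.12 and 8.84 normalized counts. With 4 libraries, likeness mostly means a change of like size between the groups.

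Among 15 other lymphocyte cytokines, 11 were tested, 4 were lower, 1 was higher and 6 did not pass. Over all genes tested, 4.97% were lower and 8.8% higher, the shares to set beside the counts of this and the later lists. The lower ones were Lif, Il9, Il6 and Csf2, with log2 fold changes of -0.81, -1.58, -0.76 and -0.57. The higher one was Il10, which encodes an anti-inflammatory cytokine, with 2.54 and 2.50 normalized counts in WT and 6.56 and 5.70 in those labelled ICAM-1 KO (log2 fold change 1.31 with adjusted p = 0.0421). Areg, the amphiregulin gene and the most abundant of the list, had normalized counts of 764 and 914 in WT and 669 and 730 in those labelled ICAM-1 KO and did not pass (log2 fold change -0.23 with adjusted p = 0.17). The median log2 fold change of the list was -0.08. Without WT replicate 1 or without WT replicate 2, 2 were lower, and without any 1 of the 4 libraries none was higher. Il13 and Il9, the other cytokine with a fall of over 2-fold, were thus close in size of change, whereas Il5 lay near Lif and Il6.

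Of 15 genes that receive and pass on IL-4, IL-5 and IL-13, 14 were tested, 5 were higher, 1 was lower and 8 did not pass, with a median log2 fold change of 0.18. Il5ra, the alpha chain of the IL-5 receptor, had normalized counts of 1.85 and 2.28 in WT and 6.66 and 8.57 in those labelled ICAM-1 KO (change of 1.93 on the log2 scale, adjusted p = 0.0132 from the edgeR test), and it also stands among the eosinophil markers. Csf2rb, the beta chain that IL-5 and GM-CSF receptors share, had a log2 fold change of 0.75 (adjusted p = 0.00662). Il4ra, the chain common to the receptors of IL-4 and IL-13, went from 145 and 165 to 202 and 196 (log2 fold change 0.38, adjusted p = 0.0328), and Jak2 had a log2 fold change of 0.32 (adjusted p = 0.0365). Il2rg, the most abundant of the list, had normalized counts of 1132.5 and 1072 in WT and 975.4 and 1084 in those labelled ICAM-1 KO (adjusted p = 0.646). The count of higher genes was 1 without WT replicate 1, 2 without WT replicate 2, 3 without ICAM-1 KO replicate 1 and 2 without ICAM-1 KO replicate 2.

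Of the receptors that activate ILC2s, 12 of 13 listed were tested and 1 was lower, or 8.33% against 4.97% of all genes. This was Il2ra, the alpha chain of the IL-2 receptor, which went from 699 and 836 to 536 and 524 normalized counts (log2 fold change -0.51, adjusted p = 0.0133 in the edgeR test). Il7r had a log2 fold change of 0.28 (adjusted p = 0.0513), Tnfrsf25 of -0.27 (adjusted p = 0.105) and Il1rap of 0.62 (adjusted p = 0.143). Without WT replicate 2 none was lower. None was higher by this edgeR test, while Il7r and Il1rap had unadjusted p-values of 0.00729 and 0.0393 and DESeq2 called 1 gene higher. The median of this list was 0.00.

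Of 25 factors that act on the locus, all tested, 21 did not pass, 2 were lower and 2 were higher, shares near the 4.97% and 8.8% of all genes, and the median log2 fold change was 0.01. Without WT replicate 1 the count was 1 lower and 0 higher, without WT replicate 2 0 lower and 1 higher, without ICAM-1 KO replicate 1 1 lower and 2 higher, and without ICAM-1 KO replicate 2 3 lower and 1 higher. Batf, an AP-1 family member, fell from 146 and 149 to 105 and 106 normalized counts (log2 fold change -0.46, adjusted p = 0.0142), and Bhlhe40, the most abundant of the list, from 2010 and 1934 to 1442 and 1527 (log2 fold change -0.38, adjusted p = 0.0202). Nfatc1 and Ets1 rose, with log2 fold changes of 0.46 and 0.32 and adjusted p-values of 0.0212 and 0.0344. Gata3, the master factor of the type 2 fate, had normalized counts of 537 and 493 in WT and 425 and 489 in those labelled ICAM-1 KO and did not pass (adjusted p = 0.363).

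Among 11 factors that restrain the locus, 10 were tested and 1 was lower, or 10% against 4.97% of all genes. This was Sox4, an antagonist of GATA-3 (17.2 and 13.9 against 5.62 and 8.38 normalized counts, log2 fold change -1.12, adjusted p = 0.0326 in the edgeR test). Without WT replicate 1, without WT replicate 2 and without ICAM-1 KO replicate 1, 0 genes of the list were lower, so Sox4 did not pass there. None was higher by the edgeR test, with 1 gene, Lef1, at an unadjusted p under 0.05 and 1 called by DESeq2. Lef1, Bcl6 and Tbx21 had log2 fold changes of 0.59, 0.47 and 0.64, with adjusted p-values of 0.0675, 0.282 and 0.316, and Dnmt1, the most abundant of these, was at 259 and 255 against 267 and 239 normalized counts.

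Of 11 genes that answer to IL-4 or IL-13 in other settings, 9 were tested, 2 were lower and 4 were higher. The lower ones were Arg1, the most abundant, with a log2 fold change of -0.65 (adjusted p = 0.00371), and Cish, a feedback inhibitor of STAT5, with -0.58 (adjusted p = 0.00381). Chil3 and Mrc1 were the higher genes with the smallest p, with log2 fold changes of 1.99 and 1.59. Both also stand in the list of macrophage genes given below. No partner of RAD50 in DNA repair (8 tested) and no other subunit of kinesin-2 (3 tested) passed the test. Atm, Mre11a, H2afx and Rbbp8 had log2 fold changes of -0.44, -0.27, 0.25 and 0.21, with adjusted p-values of 0.145, 0.178, 0.179 and 0.254. Kifap3, Kif3c and Kif3b had log2 fold changes of -0.15, -0.11 and 0.02 (adjusted p-values from 0.752 to 0.958). By the older form of edgeR's test, DESeq2 and limma, too, no gene of these 2 lists passed, and the count at an unadjusted p under 0.05 was 1, with Atm at 0.0406.

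**Figure D4:**
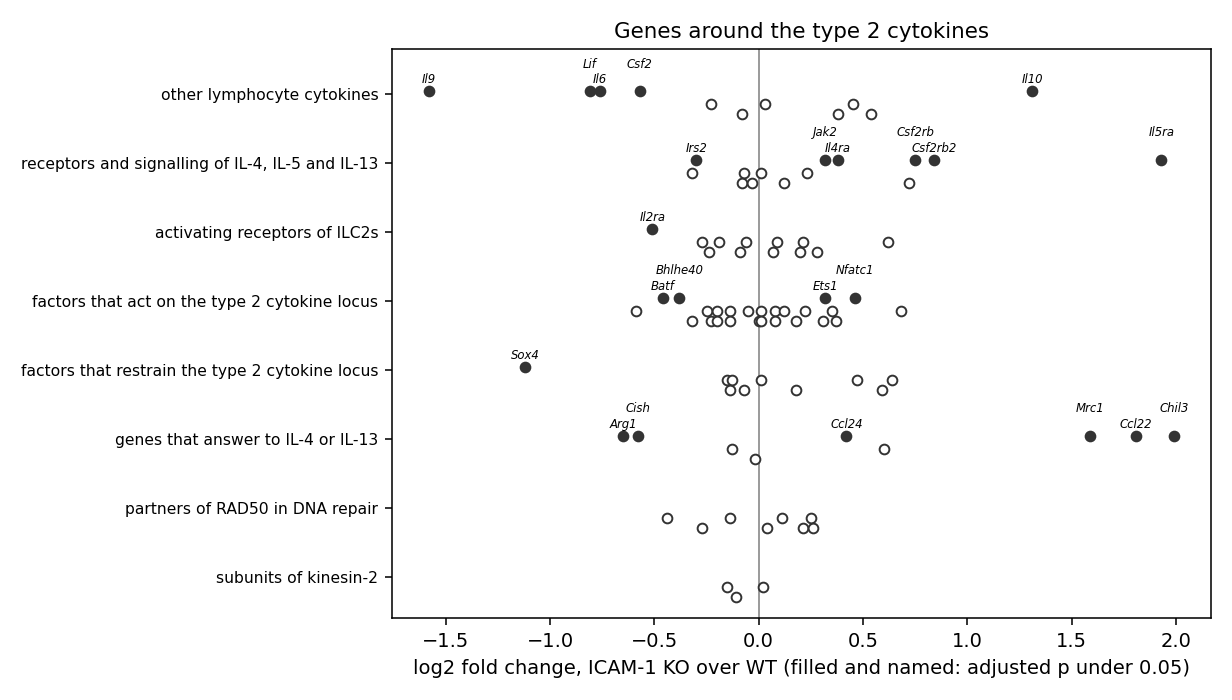
Log2 fold change (libraries labelled ICAM-1 KO over WT) of the tested genes of each list, 1 point a gene. Filled points with names have an adjusted p under 0.05. Of the receptors and signalling genes 5 lie to the right and 1 to the left of 0 among the filled points, of the other lymphocyte cytokines 4 to the left and 1 to the right.

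ILC2s are not the only cells that use this locus, so markers of other cells are given beside it. The summed normalized count of 14 ILC2 marker genes was 6279 and 6594 in WT and 5560 and 5619 in those labelled ICAM-1 KO. Of these genes 4 were lower (Arg1, Hlf, Lpcat2 and Il2ra), 1 was higher (Klrg1) and 9 did not pass, with a median log2 fold change of -0.10. Arg1, the most abundant of the 14, had mean normalized counts of 1583 in WT and 992.8 in those labelled ICAM-1 KO. Il2ra had means of 767.5 and 530.2, so the sum weighs these lower genes heavily. Il1rl1, which encodes the sorted ST2 receptor, had normalized counts of 626 and 728 in WT and 774 and 760 in those labelled ICAM-1 KO (adjusted p = 0.173). With each library scaled to the 14 genes, Il5 and Il13 had log2 fold changes of -0.58 and -1.27 (adjusted p = 0.00394 and 0.00341 in the edgeR test). The median of all genes was then 0.19. As Arg1 and Il2ra, lower themselves, are among the 14, this scale does not measure ILC2 content. A change in the share of ILC2s was not tested.

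Mast cells, basophils and T cells can express Il4 and Il13. The summed normalized count of 12 basophil and mast cell genes was 1707 and 1398 in WT and 1950 and 2427 in those labelled ICAM-1 KO, with 4 of 12 genes higher, none lower and none at 0. Cma1, a mast cell chymase, had 13514 and 10946 counts in WT and 15826 and 22040 in those labelled ICAM-1 KO. Cma1, Tpsb2 and Cpa3 weighed most in the sum, at 702, 516 and 492 normalized counts in ICAM-1 KO replicate 2. Both libraries labelled ICAM-1 KO lay above both WT libraries for 8 of the 12 genes, against 28.3% of all genes tested. The 2 genes Kit and Mcpt8 had negative changes. Kit had 243 and 205 normalized counts in WT and 218 and 196 in those labelled ICAM-1 KO. Mcpt8 had 40.8 and 59.1 against 39.4 and 51.7, so neither was highest in ICAM-1 KO replicate 2. ICAM-1 KO replicate 2, which had the highest Il4, also had the highest sum of this list and of the T cell, B and plasma cell, macrophage, epithelial and endothelial lists. ICAM-1 KO replicate 1 had the lowest Il4, at 7.12, and its sums of this list and the T cell list exceeded both WT libraries. For 12 T cell genes the sums were 787.7 and 890.5 in WT and 1305 and 1524 in those labelled ICAM-1 KO, with 7 of 12 higher, none lower and none at 0. Of these genes 2, Cd3g and Cd8a, had negative log2 fold changes, of -0.33 and -0.04 (adjusted p = 0.158 and 0.962 in the edgeR test). The lineage gate of the sort held CD3ε, CD4, CD5 and TCRβ, which T cells carry, and FcεRIα, which mast cells and basophils carry. The part of these cells in the levels of Il4, Il5 and Il13 was not tested.

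Other lists moved too. Of 9 eosinophil genes 7 were tested, 2 lower and 4 higher, with sums of 124 and 110 in WT and 71.8 and 95.5 in those labelled ICAM-1 KO. Epx was at 0 in both of the latter and at 1027 and 739 counts in WT. Macrophage and monocyte genes were higher for 8 of 10 (sums of 727 and 917 against 1913 and 2501). Of these sums Chil3 alone held 211 and 423 in WT and 1052 and 1423 in those labelled ICAM-1 KO. Endothelial genes were higher for 10 of 10 (171.7 and 173.8 against 424.5 and 456.1). Epithelial genes were higher for 4 of 7 tested (414 and 183 against 527 and 1349) and B and plasma cell genes for 5 of 7 (243 and 420 against 648 and 783). Of the epithelial sums, Scgb1a1 held 338 and 142 in WT and 123 and 510 in those labelled ICAM-1 KO. It did not pass (adjusted p = 0.651 in the edgeR test). Sftpc, which was higher, held 24.2 and 0.57 against 253 and 537. No list of macrophage, endothelial, epithelial or B and plasma cell genes held a lower gene.

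**Figure D5:**
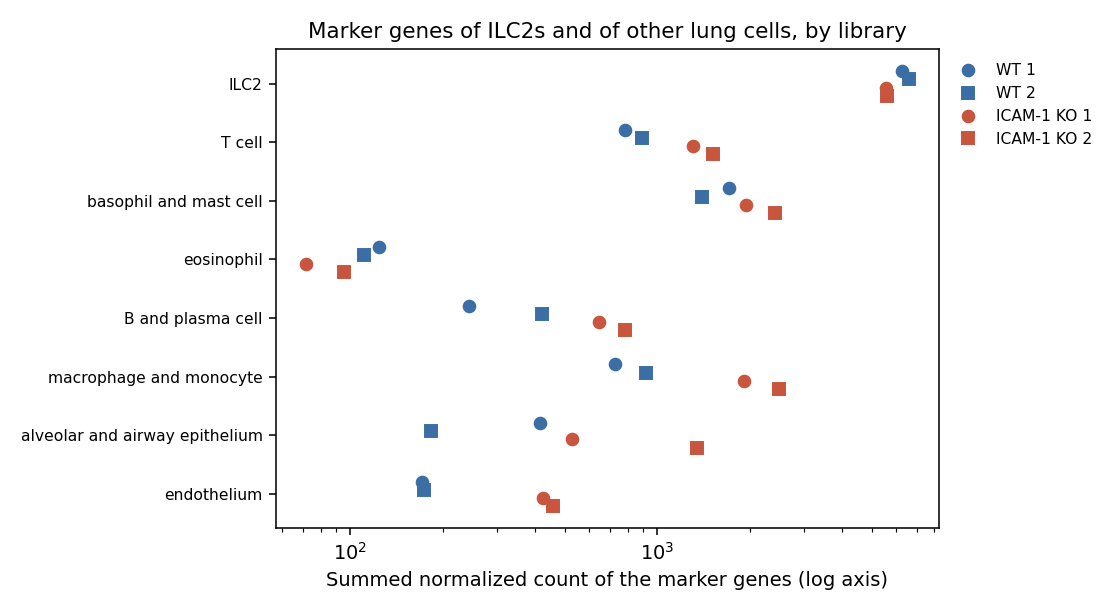
Summed normalized count (log axis) of each list of marker genes in the 4 libraries, circles for replicate 1 and squares for replicate 2, blue for WT and red for the libraries labelled ICAM-1 KO. The ILC2 list is the highest, at 6279 and 6594 in WT and 5560 and 5619 in those labelled ICAM-1 KO, and the lists of T cells and macrophages lie higher in both red libraries.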

How the data were processed

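RNA of sorted lung ILC2s was measured in 4 libraries, 2 WT and 2 labelled ICAM-1 KO, grouped by their sample titles. The authors made cDNA from 10 ng of RNA with a SMARTer kit, used STAR for alignment to mm10, and Partek estimated the counts of GENCODE M20 genes. These deposited expected counts are not normalized, and reads that fit several genes are split. The deposited normalized signal equals the count plus 1 times a single factor per library, from the authors' upper quartile normalization. The differential analysis of the study used GSA, which was not run here.

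The expected counts were rounded and tested in R 4.3.3 by edgeR 4.0.16, using upper quartile factors, glmQLFit (legacy=FALSE) and glmQLFTest, without covariates. Tested genes had normalized counts that averaged 1 or more and summed to 10 or more, as in the study's methods. Benjamini-Hochberg adjustment of p-values ran over all genes tested. Intervals are 95% intervals from the standard error and the total degrees of freedom of the test. These are the residual degrees of freedom of the gene plus prior ones estimated across genes. Reads carry no molecular identifiers, so Poisson intervals cover counting error only. The script was tested on simulated counts. Means and SDs are over normalized counts, and exon lengths come from GENCODE M21, with 22532 genes matched. The deposited tables give 21 symbols as dates, and Sept8 was named by its coordinates. Promoter windows are from RefSeq.

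The members and lists were chosen with earlier results of these data known. Besides the members, the genes named are those within 1 Mb with an adjusted p under 0.05, 4 tested neighbours on each side, up to 4 genes of each list by p with its most abundant member, 3 genes most like Il5 and Il13 in pattern, and Icam1. Il3, Il10, Gm12214, Gata3, Il1rl1, Hlf, Lpcat2, Klrg1, Cma1 and Epx were named after their values were seen. The same holds for Tpsb2, Cpa3, Kit, Mcpt8, Cd3g, Cd8a, Scgb1a1 and Sftpc. Alternatives were TMM factors, DESeq2 1.42.0, other filters on low counts, limma 3.58.1, the older edgeR method, a replicate block, each library left out, another window and fold threshold, and other lengths. The scaling to ILC2 genes was added after seeing the data.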

Additional observations from a re-analysis of the deposited data

How the results depend on the processing

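Il5 and Il13 were lower with an adjusted p under 0.05 in all 13 alternatives tried for them, with log2 fold changes from -0.89 to -0.58 and from -1.58 to -1.27, and Rad50, Kif3a and Il4 passed in none. With each library left out in turn, where the lone library is assumed to vary like the other group, Il4 ranged from -0.37 to 0.55 and was the single value to change sign, at -0.37 without ICAM-1 KO replicate 2, while the log2 ratios of Il13 to Il5 and of Il4 to Il5 (ICAM-1 KO minus WT) ranged from -0.82 to -0.57 and from 0.39 to 1.31. Within 1 Mb, 2 genes, both of them members, were lower without a filter on low counts, with the older method, without WT replicate 1 and without ICAM-1 KO replicate 1, against 3, so Csf2 did not pass there. A limit of 2-fold left 1 member and 1 gene within 1 Mb lower and 0 genes higher there. No higher gene was left within 1 Mb (0) without a filter on low counts, with filterByExpr, with limma, in a 500 kb window or with any library left out (0 to 0).

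The replicate numbers did not pair the libraries (correlation of deviations -0.066). With the replicate block, Il5 had a log2 fold change of -0.76 and Il13 of -1.45, 1 activating receptor and 1 restraining factor were higher, and 0 other cytokines. TMM factors and DESeq2 gave 1 higher activating receptor, and DESeq2 1 higher restraining factor. Without a filter on low counts, 201 genes were lower and 334 higher over all genes, against 582 and 1030, and 0 other cytokines were lower and 0 higher, 0 receptor genes lower and 1 higher, 0 acting factors higher and 0 restraining factors lower. With filterByExpr these were 2 receptor genes, 1 acting factor and 0 cytokines higher, and limma and the older method gave 0 higher cytokines and the latter 0 lower receptor genes. DESeq2 called 930 genes lower. With a library left out, between 158 and 388 genes were lower and between 479 and 948 higher. The lists then had 2 to 4 cytokines lower and 0 higher, 0 receptor genes lower and 1 to 3 higher, 0 to 1 activating receptors lower, 0 to 3 acting factors lower and 0 to 2 higher, and 0 to 1 restraining factors lower and 0 to 1 higher. Scaled to ILC2 genes, 178 genes were lower and 1867 higher.

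With the longest transcript as length, mean TPM in WT and in ICAM-1 KO was 1694 and 1039 for Il5, 62.9 and 23.9 for Il13, 48.9 and 44.7 for Rad50 and 34.7 and 40 for Il4, against 20.5 and 17.4 for Kif3a. With 204 to 412 counts, Il4 has the widest interval of the 5 members.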
